A study of Mus musculus with 12 samples.

Results

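Genes of the S100, annexin and galectin families and of the cytoskeletal proteins they work beside were followed across all arrays of the series, 10 in number: S100a4, S100a6, S100a10, S100a11, Anxa1, Anxa2, Lgals1, Lgals3, Vim and Ahnak. A member was represented by the probe sets that the platform annotation maps to its symbol alone, and the brightest of these over the 12 arrays was taken as its main probe set. Of the 10 genes 9 had a probe set of their own, of 18193 genes in the series that had one, and they held 20 of the 45037 probe sets tested. S100a11 had none, because the probe set that carries its symbol also names a pseudogene and a predicted gene, so no value is given for it. The genes were chosen by family with earlier results of these same arrays in view, and the rule names no single comparison. What they visibly share is a high level in the day 3 controls. For that reason every comparison of the members that uses the day 3 controls is given here as a description, with differences, standard errors (SE) and 95% intervals and no p-value, and supports nothing. Comparisons of the members that do not use the day 3 controls are given with their test. Which earlier results guided the choice is not stated, so these p-values and counts may also depend on it.

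The RNA came from splenic B cells of C57BL/6 mice, enriched on magnetic beads for B220, a surface form of CD45 found on B cells. All groups carried the MD4 transgene, Tg(IghelMD4)4Ccg, which gives B cells a receptor for hen egg lysozyme (HEL), and all were cultured with HEL, anti-CD40 and IL21. The control groups received sicontrol and the others siJmjd2a or siJmjd2c, RNA interference against the histone demethylases now named Kdm4a and Kdm4c, and each was collected at day 1 and at day 3, with 2 arrays in each of the 6 groups. The labels speak of small interfering RNA in one place and of virus carrying short hairpin RNA in another, give no age, and call the replicates biological without naming separate mice or cultures, so p-values measure only the spread between these arrays, which may be technical. In what follows, "Jmjd2a arrays" and "Jmjd2c arrays" are the arrays labelled as depleted of that gene.

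S100 proteins are small calcium sensors that bind and alter partner proteins. Annexins bind membranes when calcium rises, and galectins bind the sugars of glycoproteins inside and outside the cell. The families meet in 1 well known complex, in which a pair of S100A10 chains joins a pair of annexin A2 chains and AHNAK, a very large scaffold protein, docks on it under the plasma membrane. In lymphocytes, genes of this kind are known for higher expression in activated, memory and effector cells than in resting ones, and macrophages and other myeloid cells also express many of them strongly.

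Values are log2 probe-set values, so a difference between them is a log2 fold change. A probe set's level says nothing about the level of another probe set, and in these bulk samples fewer cells of a type and less RNA per cell cannot be told apart. The median of the array values was highest on the second day 3 control array, at 5.25, and all 9 main probe sets averaged above 5.22, the median of the probe-set means. No fall of a targeted transcript passed the test. The Kdm4a difference on the Jmjd2a arrays was 0.11 (SE 0.09, limma adjusted p = 0.62) at day 1 and -0.12 (SE 0.09, limma adjusted p = 0.36) at day 3. For Kdm4c on the Jmjd2c arrays it was 0.19 (SE 0.12, limma adjusted p = 0.41) and 0.03 (SE 0.12, limma adjusted p = 0.91). Across probe sets, the Jmjd2a and Jmjd2c arrays of day 3 correlated at 0.9956 to 0.9973 with the mean of the day 1 controls and at 0.987 to 0.991 with the mean of the day 3 controls. The second day 3 control array stood apart in its interquartile range, 3.08 against 3.38 to 3.63 on the other arrays, and the differences of the members from the day 3 controls stayed in the same direction without it.

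**Figure D1:**
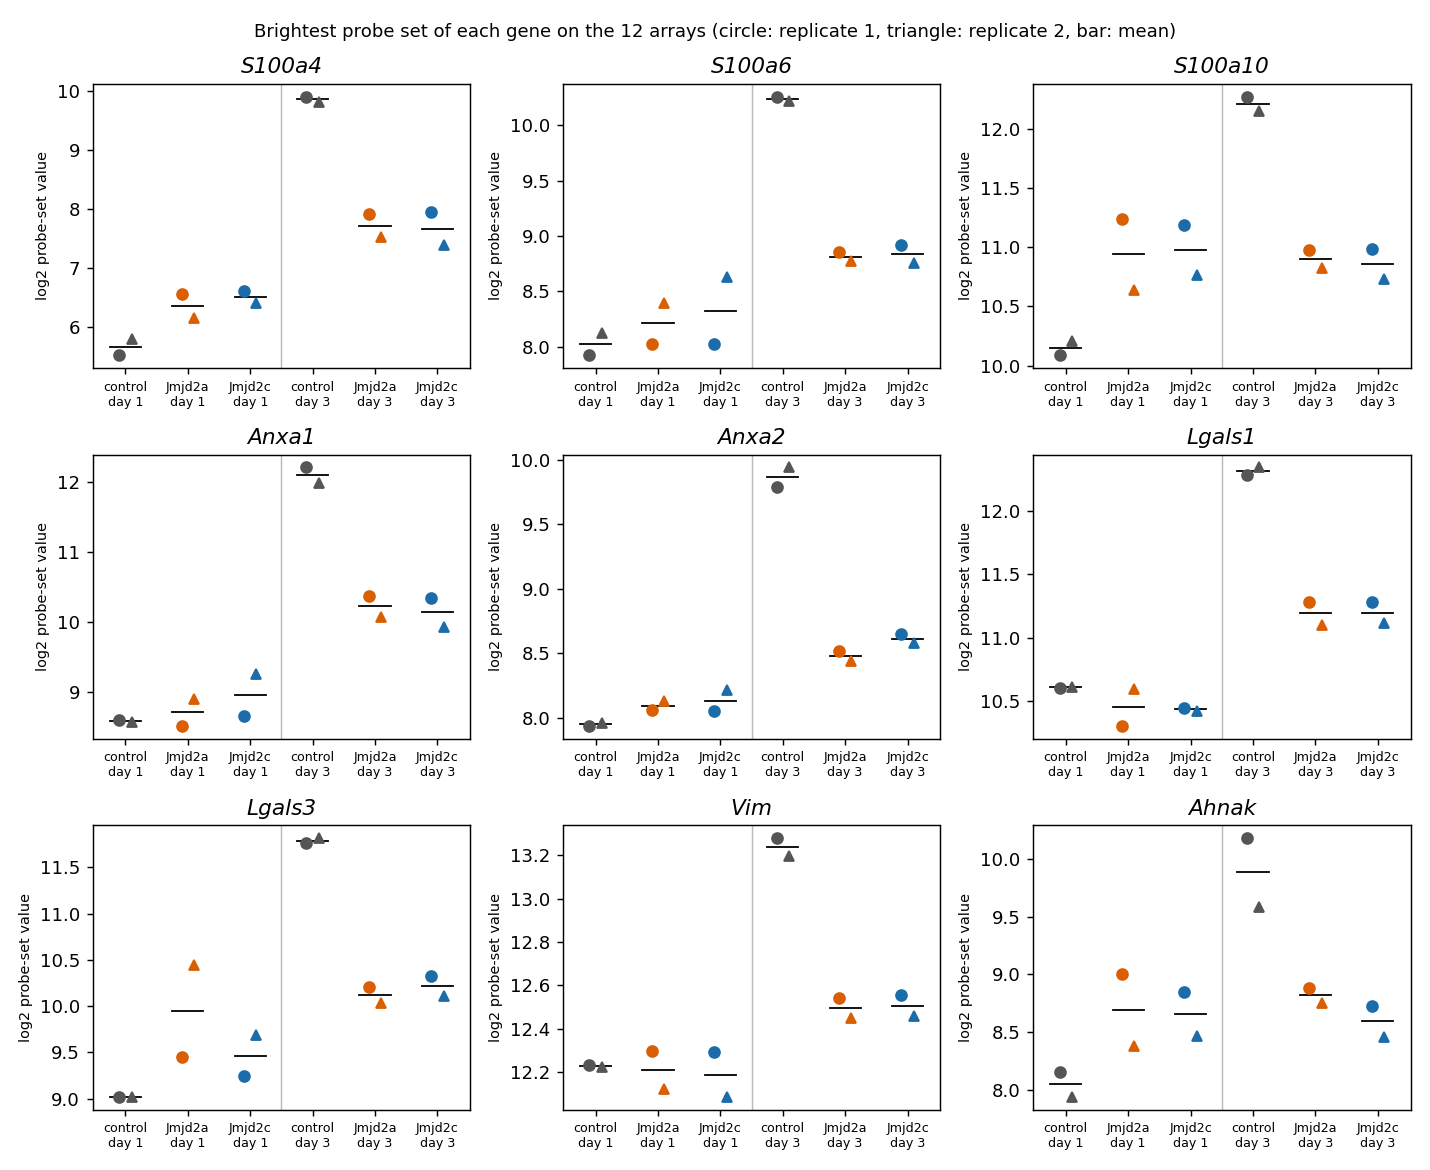
Log2 value of the main probe set of each gene (y axis) on the 12 arrays by group (x axis), with a circle for replicate 1, a triangle for replicate 2 and a bar for the group mean. In all 9 panels both day 3 controls lie above the other 10 arrays, and the 4 Jmjd2a and Jmjd2c arrays of day 3 lie between them and the day 1 controls. The high day 3 controls are what the genes were seen to share, and the share of all probe sets with this order was not counted.

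S100a4 encodes a protein that binds non-muscle myosin and is associated with cell movement, and it had the widest range of the members. Its day 1 controls read 5.53 and 5.80, the Jmjd2a arrays of that day 6.56 and 6.15, and the Jmjd2c arrays 6.61 and 6.41. By day 3 the controls read 9.90 and 9.82, the Jmjd2a arrays 7.92 and 7.52, and the Jmjd2c arrays 7.94 and 7.39. Day 3 controls thus stood apart at the top, day 1 controls at the bottom, and both labels took a middle place on each day. The controls differed between days by 4.20 (SE 0.20, 95% interval 3.76 to 4.63), which is 18.4-fold, and only 9 of 45037 probe sets differed by more in that direction. At day 3 the Jmjd2a arrays lay 2.14 below the controls and the Jmjd2c arrays 2.19 below (SE 0.20 for both).

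S100a6, also called calcyclin, is a calcium sensor known to bind annexins and the protein CacyBP. Its day 1 values overlapped between groups, with controls at 7.93 and 8.13, Jmjd2a arrays at 8.02 and 8.40 and Jmjd2c arrays at 8.02 and 8.63. Day 3 separated them, with controls at 10.26 and 10.22, Jmjd2a arrays at 8.85 and 8.77 and Jmjd2c arrays at 8.92 and 8.75. The controls differed between days by 2.22 (SE 0.17), or 4.65-fold, and the labelled arrays of day 3 were below their controls by 1.43 and 1.41 (SE 0.17).

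S100a10 differs from the other S100 proteins in that it cannot bind calcium and is held by annexin A2. Its day 1 controls were the lowest arrays, at 10.09 and 10.21, against 11.24 and 10.64 on the Jmjd2a arrays and 11.19 and 10.77 on the Jmjd2c arrays. At day 3 the controls read 12.27 and 12.15, the Jmjd2a arrays 10.97 and 10.83, and the Jmjd2c arrays 10.99 and 10.73. The labelled arrays therefore held about the same level on both days, while the controls moved past them by 2.06 (SE 0.17), or 4.18-fold. Below the day 3 controls they lay by 1.31 and 1.35 (SE 0.17). Its other probe sets, 1456642_x_at and 1439348_at, placed the day 3 controls highest as well, at means of 11.79 and 5.97 against 9.89 and 5.08 in the day 1 controls.

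Anxa1 encodes annexin A1, known as a mediator that limits inflammation through formyl peptide receptors. Its controls read 8.60 and 8.57 at day 1, close to the Jmjd2a arrays at 8.52 and 8.91 and the Jmjd2c arrays at 8.66 and 9.26. Day 3 controls were at 12.20 and 11.98, against 10.37 and 10.08 on the Jmjd2a arrays and 10.34 and 9.94 on the Jmjd2c arrays. All 6 arrays of day 3 were thus above all 6 of day 1, and the controls were the highest of them. The difference of the controls between days was 3.50 (SE 0.19, 95% interval 3.08 to 3.93), or 11.3-fold, exceeded by 16 probe sets. Both labels were lower at day 3, by 1.87 and 1.95 (SE 0.19). A second Anxa1 probe set, 1444016_at, was dim, with group means from 3.34 to 4.10.

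Anxa2 encodes annexin A2, the partner of S100A10 and a surface receptor for plasminogen. Its replicates were close: 7.94 and 7.96 in the day 1 controls, 8.06 and 8.13 on the Jmjd2a arrays and 8.05 and 8.21 on the Jmjd2c arrays. Day 3 brought 9.79 and 9.94 in the controls, 8.51 and 8.44 on the Jmjd2a arrays and 8.65 and 8.58 on the Jmjd2c arrays. The 2 days did not overlap in any label, and the step was largest in the controls, 1.91 (SE 0.09) or 3.77-fold. Below the day 3 controls, the Jmjd2a arrays lay by 1.39 and the Jmjd2c arrays by 1.25 (SE 0.09). Of its 2 other probe sets, 1437692_x_at had its highest mean, 5.96, in the day 3 controls, and 1437691_at was dim with group means from 2.93 to 3.17.

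Lgals1 encodes galectin-1, a secreted lectin that cross-links glycoproteins such as CD45 on lymphocytes and is a known product of plasma cells. Day 1 controls read 10.60 and 10.61, Jmjd2a arrays 10.30 and 10.60, and Jmjd2c arrays 10.44 and 10.42. At day 3 these became 12.28 and 12.34, 11.28 and 11.10, and 11.28 and 11.11 in the same order. The groups lay close together at day 1, whereas at day 3 all groups were higher and the controls furthest, by 1.71 (SE 0.09) or 3.26-fold over their day 1. The labelled arrays lay 1.12 below them (SE 0.09) under both labels. A second probe set, 1419573_a_at, gave 11.86 in the day 3 controls against 10.70 and 10.69 in the labelled groups.

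Lgals3 encodes galectin-3, an abundant lectin of macrophages that is also found in activated B cells. Both day 1 controls read 9.02, the Jmjd2a arrays 9.45 and 10.45, and the Jmjd2c arrays 9.24 and 9.69. Day 3 controls read 11.76 and 11.81, against 10.21 and 10.03 on the Jmjd2a arrays and 10.33 and 10.11 on the Jmjd2c arrays. The gap of 1.00 between the Jmjd2a replicates of day 1 is the widest between replicates of any member. In controls the days differed by 2.77 (SE 0.24), or 6.81-fold, and at day 3 the labels lay below control by 1.67 and 1.57 (SE 0.24).

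Vim encodes vimentin, the intermediate filament protein of white blood cells and mesenchymal cells. Its 6 arrays of day 1 lay between 12.09 and 12.30, with no order among the groups. On day 3 the controls read 13.28 and 13.20, the Jmjd2a arrays 12.54 and 12.45, and the Jmjd2c arrays 12.55 and 12.46. The differences were the smallest of the members and among the best determined, 1.01 (SE 0.07) or 2.01-fold between the control days and -0.74 and -0.73 (SE 0.07) for the labels at day 3. Its 2 other probe sets also had their highest means in the day 3 controls, at 12.95 and 12.82.

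Ahnak had day 1 controls at 8.16 and 7.94, Jmjd2a arrays at 9.01 and 8.38 and Jmjd2c arrays at 8.85 and 8.47. On day 3 the controls read 10.18 and 9.59, the Jmjd2a arrays 8.88 and 8.75 and the Jmjd2c arrays 8.73 and 8.46. As with S100a10, its partner in the membrane complex, the labelled arrays lay above control on day 1 on this main probe set. They were at a similar level on day 3. The control difference between days was 1.83 (SE 0.22), or 3.56-fold, and the labels lay 1.06 and 1.29 below control at day 3 (SE 0.22). Its 3 other probe sets were near or under the median level, with day 3 control means of 5.83, 5.07 and 5.39. Their day 1 means were 4.92, 4.91 and 4.64 in the controls. They were 4.95, 4.74 and 4.73 on the Jmjd2a arrays and 4.96, 4.87 and 4.47 on the Jmjd2c arrays, so the day 1 difference rests on the main probe set.

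Read across the members, the difference between the control days ran from 1.01 to 4.20 with a median of 2.06, beside a median of 0.04 over all probe sets. All 9 passed the limma threshold as higher, as did 8.46% of all probe sets, and nothing is read from that count, since this rise is what the genes were seen to share. The same holds for the labels at day 3, where all 9 were lower: the medians were -1.39 on the Jmjd2a arrays and -1.35 on the Jmjd2c arrays, and 7.11% and 5.04% of all probe sets passed as lower. Ahnak on the Jmjd2a arrays lost this call without the second of those arrays, with a difference of -1.0. Among the 11 other probe sets of the members, 9 passed as higher between the control days, and 9 and 8 passed as lower on the labelled arrays of day 3. They measure the same chosen genes, so nothing is read from these counts either. Averaging all probe sets of a gene in place of the brightest lowered the control difference of Anxa1 to 2.03, of Anxa2 to 0.95 and of Ahnak to 0.92, genes with dim other probe sets.

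The labelled arrays of day 3 lay between the controls of both days. Expressed as a share of the difference between the control days, the Jmjd2a arrays reached from 26.7% in Vim to 49.0% in S100a4, and the Jmjd2c arrays from 27.6% in Vim to 47.7% in S100a4. In all 9 genes both arrays of each label lay above both day 1 controls. How many of all probe sets separate in this way was not counted, so nothing is read from it. Set against the day 1 controls, which share no array with them, 4 of 9 members passed the test as higher on the Jmjd2a arrays and the same 4 on the Jmjd2c arrays: S100a4, Anxa1, Anxa2 and Lgals1. Among all probe sets 0.129% and 0.133% passed as higher. The S100a4 difference was 2.06 (SE 0.20, limma adjusted p = 0.0014) under the Jmjd2a label and 2.00 (SE 0.20, limma adjusted p = 0.0017) under the Jmjd2c label. For Anxa1 it was 1.64 (SE 0.19, limma adjusted p = 0.0055) and 1.55 (SE 0.19, limma adjusted p = 0.0069). Anxa2 gave 0.53 (SE 0.09, limma adjusted p = 0.049) and 0.66 (SE 0.09, limma adjusted p = 0.012), and Lgals1 gave 0.58 (SE 0.09, limma adjusted p = 0.028) and 0.59 (SE 0.09, limma adjusted p = 0.026). These counts depended on single arrays: without the first day 1 control no member passed under either label, and without the first Jmjd2a array of day 3 none passed under that label. Without the second day 1 control 1 member passed under each label. The Jmjd2a count was 2 without the second Jmjd2a array or either Jmjd2c array of day 3, and the Jmjd2c count was 1 and 2 without the first and the second Jmjd2c array. The Anxa2 calls were lost when all its probe sets were averaged, at 0.30 and 0.28, and the Anxa2 and Lgals1 calls under both labels with a prior variance without trend. The Anxa2 call under the Jmjd2a label was also lost with quantile normalization and with array centring. Both comparisons share the day 1 controls, and they may not be independent of how the genes were chosen.

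**Figure D2:**
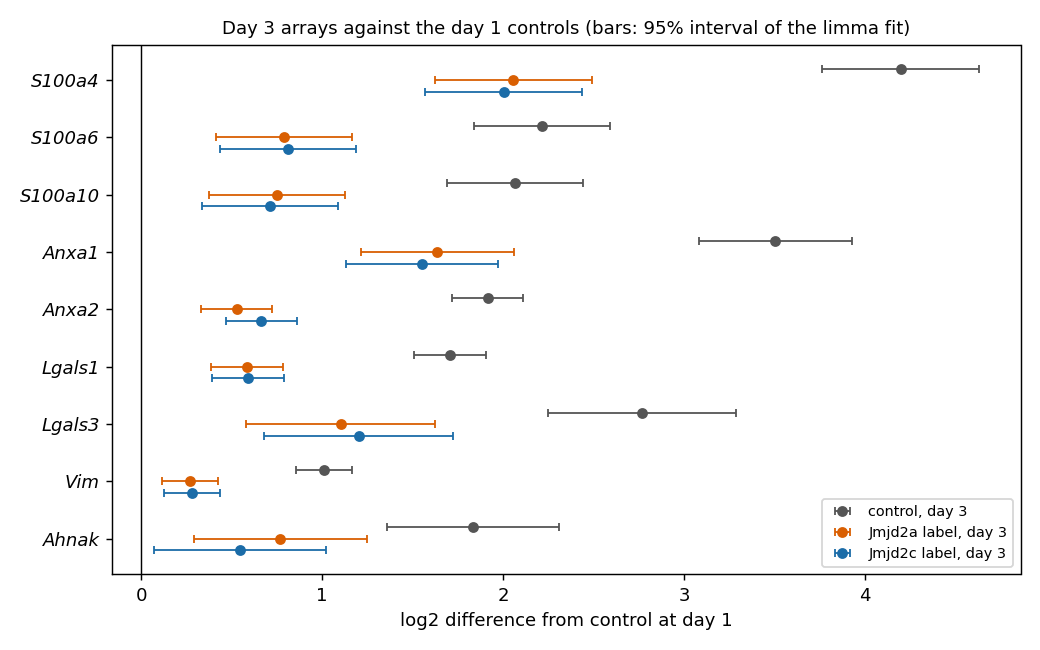
Log2 difference from the day 1 controls (x axis) for each gene (y axis) in the control, Jmjd2a and Jmjd2c arrays of day 3, with the 95% interval of the limma fit as bars. The grey control points lie to the right in all 9 genes, from 1.01 in Vim to 4.20 in S100a4, and the Jmjd2a and Jmjd2c points, which overlap each other, lie between them and 0.

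At day 1 few members passed the test against control. S100a10 and Lgals3 were higher on the Jmjd2a arrays, and S100a4 and S100a10 on the Jmjd2c arrays, that is 2 of 9 each, beside 4.23% and 5.32% of all probe sets. S100a10 was higher by 0.79 (SE 0.17, 1.73-fold, limma adjusted p = 0.016) and 0.83 (SE 0.17, 1.77-fold, limma adjusted p = 0.009). Lgals3 was higher by 0.93 under the Jmjd2a label (SE 0.24, limma adjusted p = 0.035) and stood at 0.44 under the Jmjd2c label (SE 0.24, limma adjusted p = 0.33). S100a4 stood at 0.69 (SE 0.20, limma adjusted p = 0.057) and was higher by 0.85 (SE 0.20, limma adjusted p = 0.017). Ahnak lay at 0.65 and 0.61 (SE 0.22) with adjusted p of 0.11 in limma under both labels. With all its probe sets averaged, Ahnak lay at 0.15 and 0.11. The other members, S100a6, Anxa1, Anxa2, Lgals1 and Vim, had differences between -0.17 and 0.37, none past the test. Most measured B cell and macrophage markers were also higher on these arrays, and their part in the members' differences was not tested.

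The day 1 calls were fragile. Both calls under the Jmjd2a label were lost with a prior variance without trend, and that of Lgals3 also when only the day 1 arrays were fitted. Without either day 1 control array none of the 9 members passed under either label. The Jmjd2a count was 1 without the first Jmjd2a array of day 1 or either one of day 3 and 4 without either day 3 control, and the Jmjd2c count was 1 without either Jmjd2c array of day 1. The Lgals3 difference under the Jmjd2a label was 0.43 without the second Jmjd2a array of that day and 1.43 without the first. The S100a10 difference under that label was 0.49 without the first Jmjd2a array. The 2 day 1 replicates of each label also ordered the main probe sets differently. Under both labels, S100a4, S100a10, Vim and Ahnak were higher in replicate 1 and S100a6, Anxa1, Anxa2 and Lgals3 in replicate 2. The other Vim probe sets, also bright, were higher in replicate 2 under both labels.

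**Figure D3:**
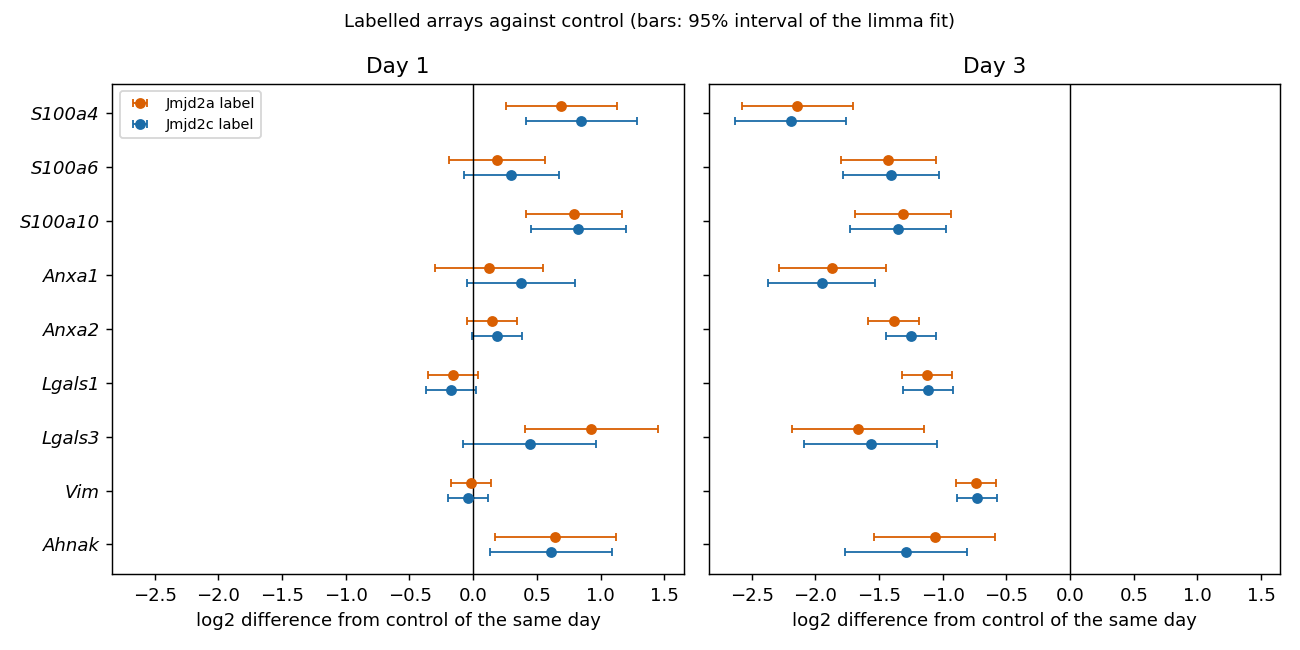
Log2 difference of the Jmjd2a and Jmjd2c arrays from the controls of the same day (x axis) for each gene (y axis), at day 1 on the left and day 3 on the right, with 95% intervals of the limma fit. At day 1 the points lie between -0.17 and 0.93, and at day 3 between -2.19 and -0.73 with no interval reaching 0.

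Within a label, 5 of 9 members were higher at day 3 than at day 1, the same 5 genes under both labels: S100a4, Anxa1, Anxa2, Lgals1 and Vim. Of all probe sets, 2.26% passed as higher on the Jmjd2a arrays and 3.27% on the Jmjd2c arrays. The largest were Anxa1, at 1.51 (SE 0.19, 2.85-fold, limma adjusted p = 0.00071) and 1.18 (SE 0.19, 2.26-fold, limma adjusted p = 0.0025), and S100a4, at 1.36 (SE 0.20, 2.57-fold, limma adjusted p = 0.0017) and 1.15 (SE 0.20, 2.23-fold, limma adjusted p = 0.0034). Lgals1 was higher by 0.74 and 0.76 (SE 0.09, limma adjusted p = 0.0005 and 0.00026). Anxa2 was higher by 0.38 and 0.48 and Vim by 0.29 and 0.32, with limma adjusted p from 0.0057 to 0.037. S100a6 stood at 0.60 and 0.51 and Lgals3 at 0.17 and 0.76, short of the test. S100a10 at -0.04 and -0.12 and Ahnak at 0.12 and -0.07 were also short of it, with 95% intervals of -0.42 to 0.34 and -0.49 to 0.26 for S100a10 and of -0.35 to 0.60 and -0.54 to 0.41 for Ahnak. The count of 5 fell to 3 on the Jmjd2a arrays without any 1 of 6 arrays, the day 1 controls and the day 3 arrays of both labels, and to 2 on the Jmjd2c arrays without the first Jmjd2c array of day 3. With all probe sets averaged, Anxa2 stood at 0.21 and 0.22 and did not pass, and a prior variance without trend ended the Vim call under both labels and the Anxa2 call under the Jmjd2a label.

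Between the labels no member differed on either day, and no probe set at all passed this test in limma, while 1081 probe sets at day 1 and 2571 at day 3 had an unadjusted p under 0.05. Over the 9 members, the difference between the labels ran from -0.25 for Anxa1 to 0.48 for Lgals3 at day 1 and from -0.14 for Anxa2 to 0.22 for Ahnak at day 3. The interval was narrowest for Vim, -0.13 to 0.18 at day 1 and -0.17 to 0.15 at day 3. It was widest for Lgals3, -0.04 to 1.00 and -0.62 to 0.42.

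On the main probe sets, the order of the 6 groups was the same in outline for all members. Day 3 controls were highest in each, and the labelled groups of day 3, which did not differ past the test, were neighbours in all members except Ahnak, where both labelled groups of day 1 lay between them. Day 1 controls were lowest in 7 members, and in Lgals1 and Vim all 3 groups of day 1 lay together at the bottom with no step past the test. Above that the members fell into different shapes. In S100a4, Anxa1, Anxa2 and Lgals1 the step from the day 1 groups up to the labelled groups of day 3 passed the test. For S100a10 and Ahnak the labelled arrays of days 1 and 3 overlapped under both labels, and for Lgals3 under the Jmjd2a label.

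Promoters of 4 members are shown because each holds a TATAAA box, a sequence found before the start of many strongly regulated genes. Each line gives the 250 bases before the annotated start, from RefSeq on GRCm38.p6, in the direction of the gene. Capitals mark all matches, on either strand, to TATAAA, to TGACTCA (the AP-1 motif), to GGGCGG (the GC box), to CCAAT and to the NF-kB motif.
S100a4, chr3:90603520-90603769, plus strand: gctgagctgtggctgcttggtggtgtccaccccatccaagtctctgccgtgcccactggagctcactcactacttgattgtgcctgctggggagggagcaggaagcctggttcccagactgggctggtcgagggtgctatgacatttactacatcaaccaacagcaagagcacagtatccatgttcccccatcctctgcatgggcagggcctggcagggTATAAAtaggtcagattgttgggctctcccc
Anxa1, chr19:20390672-20390921, minus strand: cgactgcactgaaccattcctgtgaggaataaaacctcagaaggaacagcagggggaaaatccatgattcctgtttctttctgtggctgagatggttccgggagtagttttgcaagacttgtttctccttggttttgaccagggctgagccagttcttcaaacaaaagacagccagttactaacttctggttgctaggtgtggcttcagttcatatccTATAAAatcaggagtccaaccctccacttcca
Anxa2, chr9:69453433-69453682, plus strand: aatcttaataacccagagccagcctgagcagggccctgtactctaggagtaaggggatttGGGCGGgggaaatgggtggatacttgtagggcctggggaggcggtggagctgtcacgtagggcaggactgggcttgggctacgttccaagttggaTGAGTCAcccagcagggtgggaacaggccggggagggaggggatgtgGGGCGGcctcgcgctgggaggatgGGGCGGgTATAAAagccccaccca
Vim, chr2:13574061-13574310, plus strand: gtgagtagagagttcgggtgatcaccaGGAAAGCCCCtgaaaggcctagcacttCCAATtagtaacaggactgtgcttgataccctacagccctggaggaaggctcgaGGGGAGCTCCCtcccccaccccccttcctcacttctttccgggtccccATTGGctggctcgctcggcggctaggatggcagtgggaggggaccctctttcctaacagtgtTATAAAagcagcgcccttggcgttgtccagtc
The TATAAA box began 31 bases before the start in S100a4, 32 in Anxa1 and Vim and 17 in Anxa2. The promoter table held 8 of the 10 members, and S100a10 and Lgals1 are named only. The box was in 4 of these 8, against 12.4% of 32851 promoters of the same length. TGACTCA was in 2 of 8, Anxa2 and S100a11, against 4.46% of all promoters. GGGCGG was in 4 of 8 against 32.7%, CCAAT in 3 of 8 against 33.8%, and the NF-kB motif in 2 of 8 against 7.25%. TTCNNNGAA, a motif of STAT factors, was in 0 of 8 against 7.02%, and the CArG box, the motif of serum response factor, in 0 of 8 against 1.47%. These are matches of letters in a window and were not tested for binding.

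In the annotation of GRCm38.p6 the S100 genes of chromosome 3 lie in a row, in the order S100a1, S100a13, S100a14, S100a16, S100a3, S100a2, S100a4, S100a5, S100a6, S100a7a, S100a8 and S100a9, with 0 other protein-coding genes between neighbours. S100a11 and S100a10 are next to each other beyond a further 56 genes. S100a5, which sits between S100a4 and S100a6, and S100a3 were both below the median level, and their differences between the control days were 0.22 and 0.06.

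The other genes of the 3 families were mixed. Between the control days, 2 of 10 other measured S100 genes rose past the limma threshold, S100a13 by 1.11 and S100a1 by 1.00, and none fell. Among 9 other annexins, Anxa5 rose by 1.47 and Anxa4 by 1.32, and Anxa7 fell by 0.21. Of 7 other galectins, Lgals4 rose by 0.82 and Lgals8 by 0.38, while Lgals9 fell by 0.83 and Lgalsl, a galectin-like gene, by 0.46. Of all 45037 probe sets, 3809 passed as higher and 6932 as lower between the control days. The list medians were 0.29, 0.11 and 0.02, beside 0.04 over all probe sets. The day 3 comparison with control mirrored this, as it shares the day 3 controls: on the Jmjd2a and Jmjd2c arrays Anxa5 lay at -1.02 and -1.05, Anxa4 at -0.97 and -0.94, S100a13 at -0.76 and -0.78, and Lgals9 at 0.67 and 0.57. At day 1 the clearest other family member was Lgals8, galectin-8, which rose by 1.18 on the Jmjd2a arrays and 1.15 on the Jmjd2c arrays (SE 0.09, limma adjusted p = 1.3e-05 and 1e-05). S100a8 and S100a9, the myeloid pair known as calprotectin, had large but uncertain differences at day 1, 3.90 and 4.17 for S100a8 (SE 1.28, limma adjusted p = 0.097 and 0.059) and 3.73 and 4.24 for S100a9 (SE 1.34, limma adjusted p = 0.13 and 0.067). The replicates of day 1 were unlike. The log2 of the summed values of the 10 other S100 genes was 10.00 and 10.04 on the first Jmjd2a and Jmjd2c arrays. It was 11.86 and 12.64 on the second, against 9.81 and 9.83 in the controls.

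**Figure D4:**
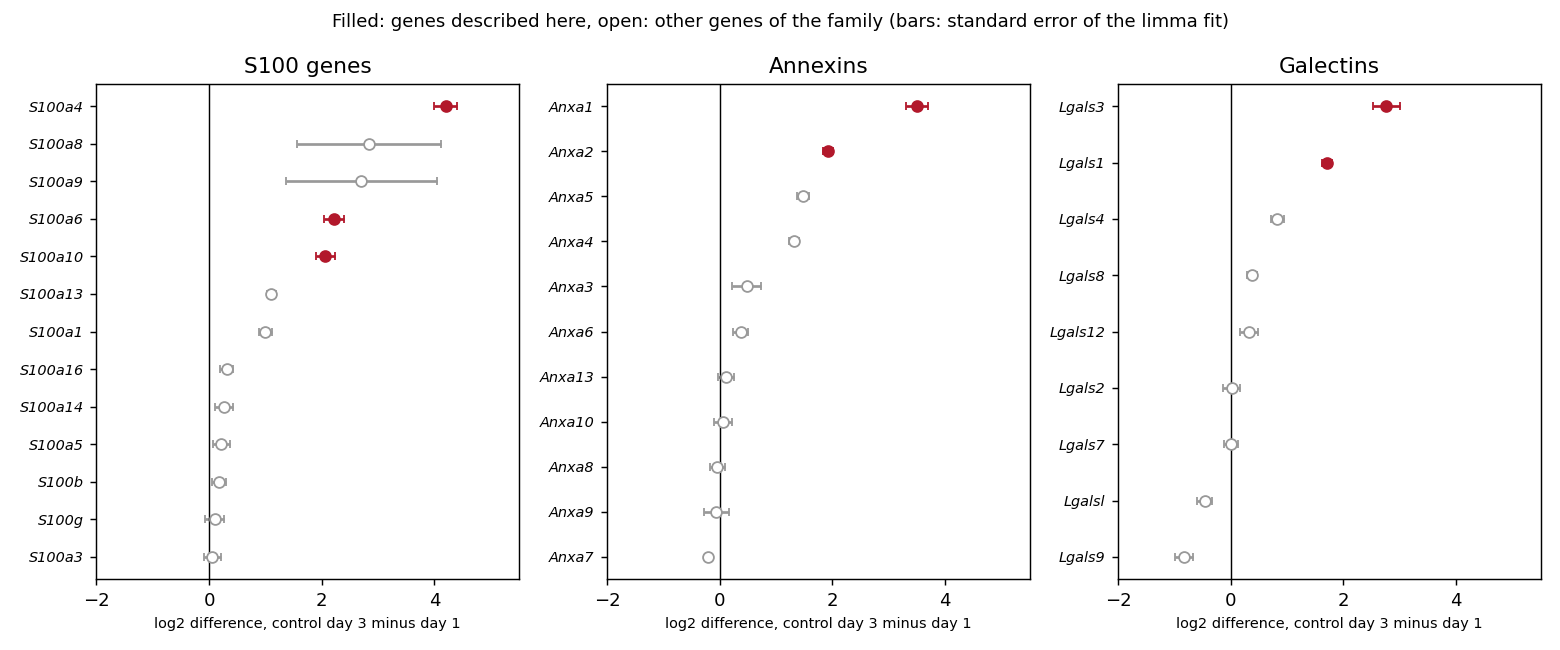
Log2 difference between the day 3 and day 1 controls (x axis) for the S100 genes, annexins and galectins with a probe set of their own (y axis), with filled points for the genes described here, open points for the others and the SE of the limma fit as bars. S100a4 and Anxa1 lie furthest right, at 4.20 and 3.50, followed by S100a8 at 2.84, whose bar is wide, and Lgals3 at 2.77. Other open points run from -0.83 for Lgals9 to 1.47 for Anxa5, apart from S100a9, whose bar is wide too.

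Of 28 measured partners and relatives of the members, such as receptors, ligands, scaffold relatives, other filaments and calpains, 8 rose and 1 fell between the control days, beside 8.46% of all probe sets that passed as higher. Capn2, a calcium-dependent protease, rose by 0.78, Lgals3bp, a glycoprotein bound by galectin-3, by 0.65, and Ahnak2, the relative of Ahnak, by 0.67. Cacybp, the partner of S100a6, fell by 0.43. At day 1, 4 rose and 1 fell on the Jmjd2a arrays and 4 rose and 2 fell on the Jmjd2c arrays, beside 4.23% and 5.32% of all probe sets as higher, the risen ones including Plaur, the urokinase receptor of the plasminogen system, by 0.87 and 1.20 (SE 0.16, limma adjusted p = 0.0061 and 0.00058), and Ptprc, which encodes CD45, by 0.19 and 0.21. Of other intermediate filament genes, Des, Nes and Prph stood between the control days at 0.06, -0.01 and 0.20, none past the test.

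Over 12 arrays, which share groups, the 36 pairs of members had Pearson r from 0.76 to 0.983 with a median of 0.928, as a description. Among 11183 genes whose probe set was above the median level, the gene most like S100a4 was Ctsw (r = 0.985), followed by Gzmb and Tmem176b, and the gene most like Anxa1 was Cxcr3 (r = 0.992), followed by Cxcl10 and Gzmb. Ctsw and Gzmb encode cathepsin W and granzyme B, proteases known from cytotoxic lymphocytes. S100a6 was most like Anxa5 (r = 0.992), Anxa2 most like Sri (r = 0.993), Lgals1 most like Bcl2l11 (r = 0.996), Vim most like Lxn (r = 0.994) and Lgals3 most like Gpnmb (r = 0.983). Both S100a10 and Ahnak had Ptgr1 as the gene most like them (r = 0.988 for both). Of 11183 genes ranked, the 50 most like S100a4 held 5 other members and those most like Anxa1 held 4, while those most like Vim held 0. The members were seen to share a high level in the day 3 controls, which raises r among them. Nothing is therefore read from these counts or from r between members.

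Markers of other cells moved along with the members. The log2 of the summed values of 8 NK cell markers was 8.38 and 8.59 in the day 1 controls, 11.88 and 11.82 in the day 3 controls and 9.76 to 10.12 on the labelled arrays of day 3, with Gzma and Gzmb brightest in the day 3 controls. Between the control days 6 of these 8 rose and 0 fell, and at day 3 6 of 8 were lower under each label. For 13 macrophage and monocyte markers the sum was 9.30 and 9.26, then 11.03 and 11.05, and 9.82 to 10.02 on the labelled arrays of day 3. Of these 11 rose between the control days, and 10 and 8 were lower at day 3 on the Jmjd2a and Jmjd2c arrays. Of 10 T cell markers 5 rose between the control days, with a sum of 9.45 and 9.46 and then 10.27 and 10.14, and of 8 dendritic cell markers 5 rose and 2 fell. The part of these cells in the members' differences was not tested.

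At day 1 the macrophage sum was higher still, 11.80 to 13.03 on the labelled arrays, where 10 and 11 of 13 markers passed as higher, while 2 of the 9 members did under each label. Of 9 neutrophil markers none passed at day 1, yet the sum was 9.52 and 10.17 on the second Jmjd2a and Jmjd2c arrays against 7.97 and 8.02 on the first. The main probe sets of S100a6, Anxa1, Anxa2 and Lgals3 were also higher on those second arrays. Those of S100a4, S100a10, Vim and Ahnak were higher on the first arrays, and that of Lgals1 differed in direction between the labels. The other Vim probe sets were higher on the second arrays. Markers of NK cells and T cells were higher on the labelled arrays of day 1 as well, 5 and 6 of 8 and 4 and 5 of 10 on the Jmjd2a and Jmjd2c arrays. So were B cell markers, of which 8 of 8 measured ones were above the median level: 6 and 7 of them passed as higher at day 1, and their sum was 14.34 to 14.70 on the labelled arrays against at most 13.03 in the day 1 controls. Of 8 dendritic cell markers 2 and 3 passed as higher at day 1, and of 8 erythroid and platelet markers 2 and 4. The sum of the plasma cell markers was 13.40 and 13.47 in the day 1 controls and 14.29 and 14.30 in the day 3 controls. On the labelled arrays it was 13.75 to 14.08 at day 1 and 13.65 to 13.71 at day 3. Of 7 plasma cell markers 3 rose between the control days and 1 fell. At day 1, 3 and 4 of these 7 passed as higher on the Jmjd2a and Jmjd2c arrays, and 1 passed as lower under each label. Of all probe sets, 4.23% and 5.32% passed as higher at day 1. Of 10 stromal and endothelial markers, 2 were above the median level and 1 passed as higher between the control days. The part of any of these in the members' differences was not tested.

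**Figure D5:**
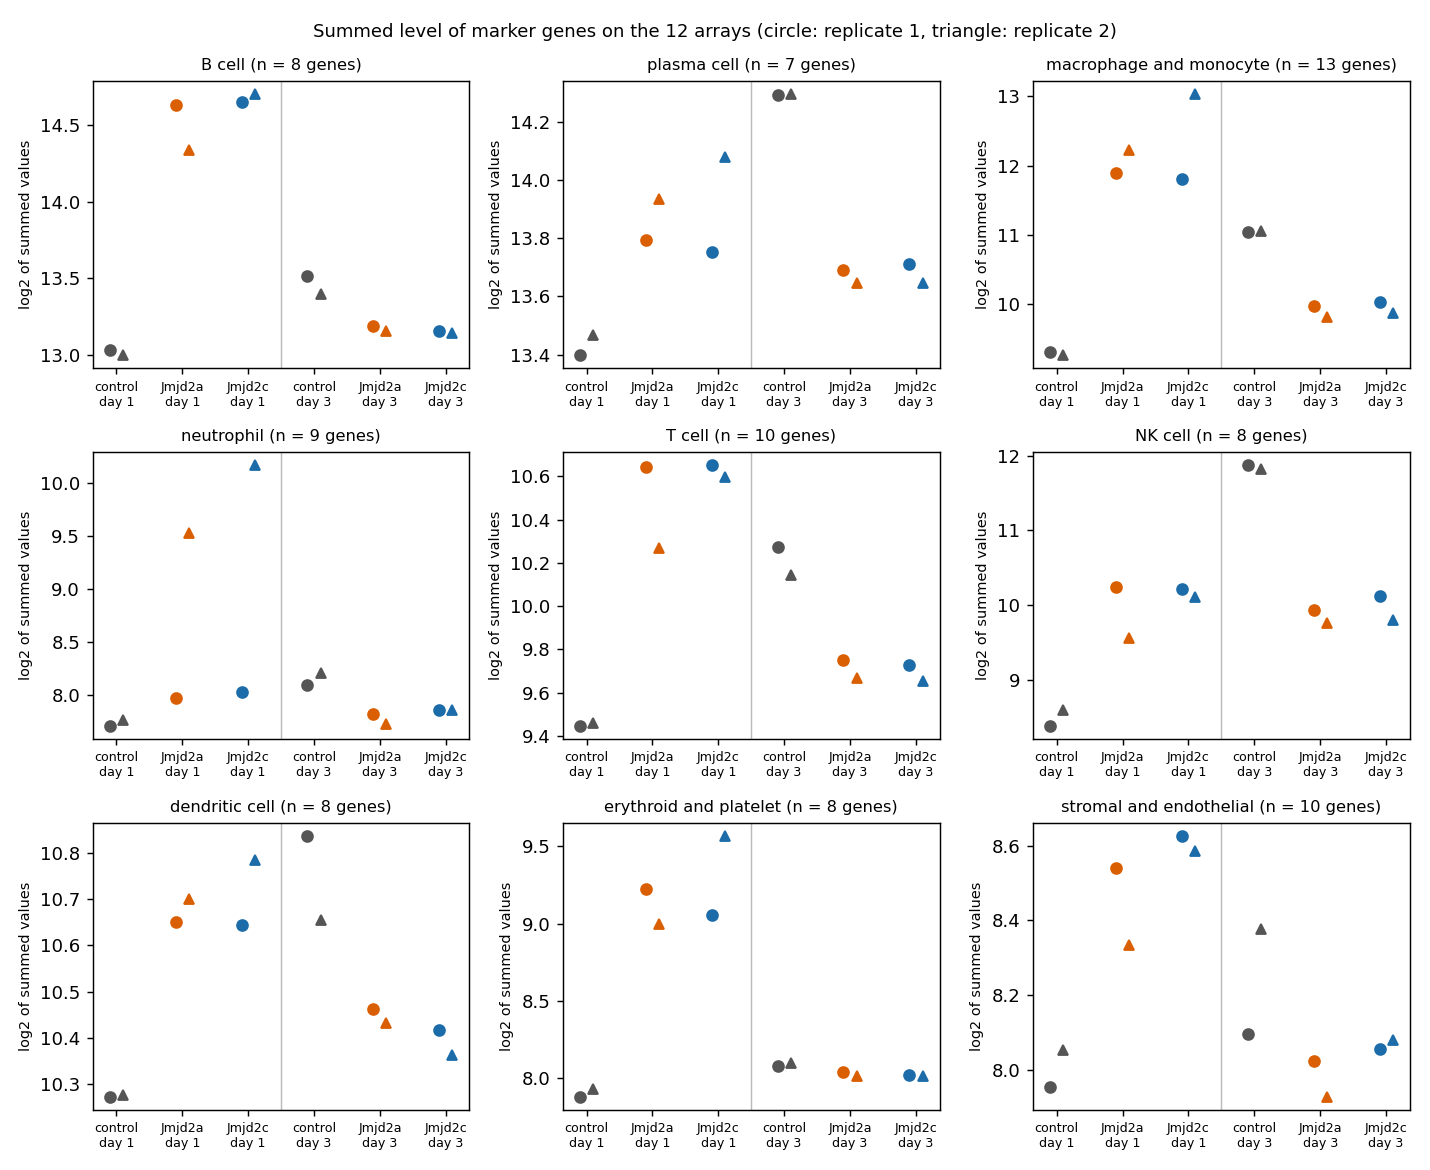
Log2 of the summed linear values of marker genes (y axis) on the 12 arrays by group (x axis) for 9 cell types, with a circle for replicate 1 and a triangle for replicate 2. NK cell and plasma cell sums are highest in the day 3 controls, at 11.88 and 14.30, whereas macrophage sums are highest on the labelled arrays of day 1, reaching 13.03.

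The difference between label and control changed from day 1 to day 3 in all 9 members and under both labels, and 6.36% and 6.84% of all probe sets passed as lower in that comparison. It uses the day 3 controls and is given here as a description. The change was -2.84 for S100a4 on the Jmjd2a arrays (SE 0.28, 95% interval -3.45 to -2.22) and -3.04 on the Jmjd2c arrays (SE 0.28, 95% interval -3.66 to -2.43), and the smallest was that of Vim, -0.72 and -0.69 (SE 0.10).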

How the data were processed

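Expression was measured on 12 Affymetrix mouse genome arrays, 2 for each of 6 groups. The authors deposited log2 probe-set values in 1 table, and per the labels biotin-labelled cRNA was made from total RNA. The sources used here do not give how the arrays were normalized. Arrays have no read depth, and their number limits the precision. Probe sets were named through the platform annotation, with 34945 naming 1 gene, 932 several and 9160 none, and symbols and promoters were taken from RefSeq tables on GRCm38.p6. After 64 array control probe sets were left out, limma 3.58.1 in R 4.3.3 was fitted to 45037 probe sets with 6 group means and eBayes with an intensity trend, leaving 6 residual degrees of freedom. P-values were adjusted by Benjamini-Hochberg over all probe sets of a comparison, with 0.05 as the threshold of the test. The fit was tested on simulated data with known changes.

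The 10 members, the gene lists and the tests were chosen with earlier results of these data known. Genes named are the members, Kdm4a and Kdm4c, at most 4 genes per list by smallest p in a comparison with control or between the control days, and the 3 genes most like each member, of which the text names some. Gzma, Gzmb, Des, Nes, Prph, S100a5, S100a3 and the genes named beside them on chromosome 3 were named after their values were seen. Alternatives were 9 other settings (quantile normalization, centring, no dim probe sets, a prior without trend, array weights, the replicate number as a block, only arrays of the same day, the mean of a gene's probe sets and an adjusted p under 0.10) and the leaving out of each of the 12 arrays. Plots were made in Python 3.11.15 with matplotlib 3.10.9.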

Additional observations from a re-analysis of the deposited data

Results flagged for a closer look

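For each of the 9 measured members, the difference between a label and its control is listed because the interaction of label and day in the fit set it apart between day 1 and day 3. That comparison uses the day 3 controls, whose values were in view when the genes were chosen, so the values are a description and not a test. On the log2 scale, day 3 difference minus day 1 difference, the Jmjd2a label gave -2.84 for S100a4, -1.61 for S100a6, -2.10 for S100a10, -1.99 for Anxa1, -1.53 for Anxa2, -0.96 for Lgals1, -2.59 for Lgals3, -0.72 for Vim and -1.71 for Ahnak. The Jmjd2c label gave -3.04 for S100a4, -1.71 for S100a6, -2.18 for S100a10, -2.33 for Anxa1, -1.43 for Anxa2, -0.94 for Lgals1, -2.01 for Lgals3, -0.69 for Vim and -1.90 for Ahnak. Both labels share the control arrays.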

How the results depend on the processing

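The 9 higher calls between the control days, the 9 lower calls on the Jmjd2c arrays of day 3 and the 9 calls for each change of a label difference between the days stood under every alternative run, and nothing is read from this, since the genes were chosen with the day 3 controls in view. On the Jmjd2a arrays of day 3 the count was 8 or 9. The counts that rest on day 1 or on small steps moved. Without 1 array, the number of the 9 members past the test ran from 0 to 4 for the Jmjd2a label and from 0 to 3 for the Jmjd2c label against control at day 1, from 3 to 6 and from 2 to 6 between the days within a label, and from 0 to 5 and from 0 to 6 for the labelled arrays of day 3 against day 1 controls. A prior variance without trend left 0 members for the Jmjd2a label at day 1, 3 between its days, and 2 and 2 members against the day 1 controls. Of all probe sets, 4.66%, 3.54%, 0.042% and 0.060% then passed in either direction. In the main fit 3366, 2527, 75 and 72 of 45037 probe sets passed in these comparisons. Array weights gave 4 members for the Jmjd2a label at day 1 and 9 and 8 members against the day 1 controls. Calls among all probe sets rose too, to 14.2%, 1.26% and 3.50% in either direction. Deviations of same-numbered replicates over all probe sets correlated at -0.11 to 0.39 in 15 pairs of groups. Only the pair of both labels at day 1 was over 0.1, so the numbers were not taken as pairs. Replicate 1 was higher in 9 of 9 members under both labels at day 3. The members are correlated with each other, and the share of all probe sets was not counted. Over all probe sets, the deviations of both labels at day 3 correlated at 0.051. With the replicate number as a block, 4 members passed for the Jmjd2a label at day 1 and 7 for its day 3 arrays against day 1 controls. The shares of all probe sets were 7.85% and 0.218% in either direction.

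Values that changed sign were all short of the test in the first place, 50 values of single members under the alternatives, and the cause was not tested. Under quantile normalization Ahnak between the days on the Jmjd2c arrays read 0.017 and S100a4 between the labels at day 3 -0.025. Centring gave 0.0020 for S100a6, 0.017 for Lgals1 and 0.013 for Vim between the labels at day 3. The mean of all probe sets gave -0.045 for Anxa1 under the Jmjd2a label at day 1, 0.021 for S100a10 between the days on the Jmjd2a arrays and 0.092 for Ahnak between the days on the Jmjd2c arrays. It gave 0.031 and 0.021 for Anxa2 between the labels at days 1 and 3, and -0.048 for Anxa1 between the labels at day 3. Without 1 array, the difference from control at day 1 ran from -0.0035 to 0.37 for S100a6, from -0.069 to 0.32 for Anxa1 and from -0.11 to 0.072 for Vim under the Jmjd2a label, and from -0.0020 to 0.60 for S100a6 and from -0.14 to 0.064 for Vim under the Jmjd2c label. Between the days it ran from -0.34 to 0.26 for S100a10, from -0.33 to 0.67 for Lgals3 and from -0.19 to 0.44 for Ahnak on the Jmjd2a arrays, and from -0.33 to 0.095 for S100a10 and from -0.26 to 0.12 for Ahnak on the Jmjd2c arrays. Between the labels at day 1 it ran from -0.36 to 0.048 for S100a4, from -0.42 to 0.19 for S100a6, from -0.34 to 0.26 for S100a10, from -0.55 to 0.047 for Anxa1 and from -0.12 to 0.039 for Anxa2. There it also ran from -0.13 to 0.16 for Lgals1, from -0.016 to 0.98 for Lgals3, from -0.081 to 0.12 for Vim and from -0.28 to 0.35 for Ahnak. At day 3 it ran from -0.22 to 0.33 for S100a4, from -0.10 to 0.062 for S100a6, from -0.087 to 0.17 for S100a10, from -0.12 to 0.29 for Anxa1, from -0.095 to 0.084 for Lgals1, from -0.21 to 0.0086 for Lgals3 and from -0.058 to 0.039 for Vim.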
